A study of Mus musculus with 36 samples.

Results

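The 42 genes described here encode the core machinery of DNA replication, and they were followed through the sorted germ and supporting cells of the fetal mouse gonad. They were chosen by gene symbol, and all 42 were present among the 19938 genes that had a probe set with a single annotated symbol. By function they were 12 genes of origin licensing, 8 of helicase activation, 7 of the polymerases and primase, 9 of the sliding clamp and strand processing, 4 of nucleotide supply and 2 of chromatin assembly. The study placed sorted cells of XY and XX gonads at 11.5, 12.5 and 13.5 days post coitum (dpc) on Affymetrix whole-transcript arrays, 3 arrays in each of 12 groups. Germ cells, XY and XX, carried an Oct4 reporter and descended from C57BL/6NJ on a mixed background. XY supporting cells carried Tg(Sry-EGFP)92Ei with CD-1 descent at 11.5 dpc and Tg(Sox9-cre/ERT2)1Msan/J with C57BL/6 descent at 12.5 and 13.5 dpc, while XX supporting cells carried Tg(Sry-EGFP)92Ei with CD-1 descent at every stage. In every group the gonads of a sex were pooled, treated with trypsin, stained with DAPI and sorted by fluorescence. Germ and supporting cells thus also differed in reporter and descent. The sex difference of supporting cells at 12.5 and 13.5 dpc cannot be told apart from the reporter line and strain.

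Each round of DNA replication begins with licensing. The origin recognition complex (ORC), Cdc6 and Cdt1 load the ring-shaped MCM helicase onto origins in G1, and geminin (Gmnn) binds Cdt1 and stops further loading once S phase has begun. The kinase Cdc7 with its activator Dbf4, together with Mcm10, Cdc45 and the GINS complex, then turns the loaded rings into moving helicases. Primase and DNA polymerases alpha, delta and epsilon copy the strands, the clamp PCNA and its loader RFC hold the polymerases in place, and RPA coats the single strands. Many of these genes are transcribed in bursts before S phase under E2F factors, so their RNA is high in dividing cells and low in resting ones. In the fetal gonad, pregranulosa cells of the ovary stop dividing early while Sertoli cells go on, testicular germ cells enter a mitotic arrest and ovarian germ cells enter meiosis after a last S phase.

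All levels are log2 expression as deposited, where 1 unit is a doubling, and the SE of a difference comes from the spread of the arrays around their group means. Array medians over all genes lay between 6.54 and 7.01, and correlations between arrays of a group between 0.967 and 0.995. The median of 16 germ cell markers lay between 8.67 and 9.93 in the germ cell arrays and between 5.84 and 6.61 in the supporting cell arrays. The median of 18 supporting cell markers lay between 6.46 and 7.03 in germ cells and between 8.41 and 9.55 in supporting cells. By these medians the sorted types matched their labels. The third XX germ cell array of 12.5 dpc was left out by the rule that defined the gene set, which leaves 2 arrays there and 35 in all. In it, 21 of the 42 replication genes stood below every other germ cell array and 28 lay within the range of the supporting cells. The same counts were not made over all genes, so nothing particular to the replication genes can be read from them. In the 2 XX germ cell arrays kept at 12.5 dpc, single markers lay apart while the supporting cell median was 6.73 and 6.88. The supporting cell marker Lhx9 ranged from 6.35 to 8.04 and the stromal marker Nr2f2 from 6.44 to 8.12. The part of such markers in results that use this group was not tested. Within each array the deposited values fell into interleaved blocks of rows on slightly different scales, and counts were also made after these blocks were aligned. Alignment raised the number called over all genes by over 1.5 times in 13 of 17 comparisons (up to 4.0 times). The shares over all genes given below are those of the deposited values, so they are no background for the aligned counts. Because each sample is a sorted population, fewer cells in S phase and less RNA per cell cannot be told apart.

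Promoter sequence is shown for 6 replication genes that held an E2F motif and had the widest differences between sexes or stages. RefSeq promoters (GRCm38.p6) were at hand for 34 of the 42 genes, and 5 members had several annotated starts. The E2F motif has the letters TTCCCGC in its commonest form. The form TTCGCGC was counted too, as was TTGGCGC and, as the last of the accepted forms, TTGCCGC. This motif, searched on both strands in the 250 bases before the start, was found in 14 of these 34 promoters (41.2%), against 7.97% of all 27025 promoters in the table and 9.94% of the 11246 promoters of similar GC content. The CCAAT box was found in 19 of the 34 (55.9%), against 34.5% of all promoters and 35.6% of those of similar GC content. The cell cycle homology region TTTGAA was found in 4 of the 34 (11.8%), against 16.3% of all promoters and 10.3% of those of similar GC content. Of the 22 E2F matches, 10 lay within 100 bases of the start, and 4 genes held more than 1. The stretches below run 5′ to 3′ on the plus strand, on which all of these genes are transcribed, with up to 30 bases on either side of the motif and the motif in capitals. They lie at chr4:108579397-108579453 for Orc1, chr12:24708004-24708055 for Rrm2, chr7:102441598-102441664 for Rrm1, chr11:98907983-98908049 for Cdc6, chr8:75109315-75109396 for Mcm5 and chr10:128015170-128015214 for Prim1.
Orc1: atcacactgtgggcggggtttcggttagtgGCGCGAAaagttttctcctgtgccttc
Rrm2: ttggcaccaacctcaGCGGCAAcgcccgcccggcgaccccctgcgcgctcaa
Rrm1: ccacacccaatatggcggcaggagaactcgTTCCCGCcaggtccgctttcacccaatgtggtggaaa
Cdc6: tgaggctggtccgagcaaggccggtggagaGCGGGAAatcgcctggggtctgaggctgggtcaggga
Mcm5: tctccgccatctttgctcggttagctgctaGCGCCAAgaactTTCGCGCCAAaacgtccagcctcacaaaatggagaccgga
Prim1: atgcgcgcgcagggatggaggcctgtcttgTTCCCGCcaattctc
Counted from the start, the motif began at base -27 in Orc1, -15 in Prim1, -67 in Rrm1, -138 in Cdc6 and -235 in Rrm2. Mcm5 held 3 matches, of which the last 2 overlap. Orc1 and Rrm2 both held a motif, and the sex difference of supporting cells ran in opposite directions for them. The relation of motif to direction over the 34 promoters was not tested. A match is only a stretch of letters, and binding was not measured here.

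Germ cells had higher levels of nearly the whole machinery. Averaged over sex and stage, 40 of the 42 genes were higher in germ than in supporting cells and 1, Gins2, was lower (limma, adjusted p under 0.05), where 29.1% and 18.1% of all 19938 genes were called in these directions (47.2% in either). The same 40 and 1 were called with the row blocks aligned. The median difference was 1.41, against 0.07 over all genes, and the called increases spanned 1.38- to 7.32-fold. All 12 licensing genes, all 9 clamp and processing genes, all 4 nucleotide genes and both chromatin assembly genes were higher. Reporter and descent also differed in this contrast and cannot be told apart from cell type. Array medians of 10 dissociation stress genes were 6.70 to 7.83 in germ cells and 8.0 to 9.39 in supporting cells. The part of these stress genes in the contrast was not tested.

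Prim1, the catalytic primase subunit that makes the RNA primers, had the largest difference of the set. Its group means lay between 10.33 and 11.18 in the 6 germ cell groups and between 7.28 and 8.56 in the 6 supporting cell groups, a difference of 2.87 (SE 0.12, limma adjusted p = 1.18e-26). Every germ cell group stood above every supporting cell group. Pole, the catalytic subunit of the leading-strand polymerase epsilon, averaged 9.85 in germ cells and 7.11 in supporting cells, a difference of 2.74 (SE 0.08, adjusted p = 4.93e-33). Dbf4 averaged 10.72 in germ cells and 8.22 in supporting cells, a difference of 2.5 (SE 0.10, adjusted p = 7.07e-27). Rfc4, a subunit of the clamp loader, and Cdc45, a helicase subunit, were higher in germ cells by 2.17 (SE 0.10, adjusted p = 1.48e-24) and 2.07 (SE 0.09, adjusted p = 4.45e-27). Germ cells thus led in each functional class, with the widest gaps in helicase activation (median 1.84) and the smallest in nucleotide supply (median 0.92).

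**Figure D1:**
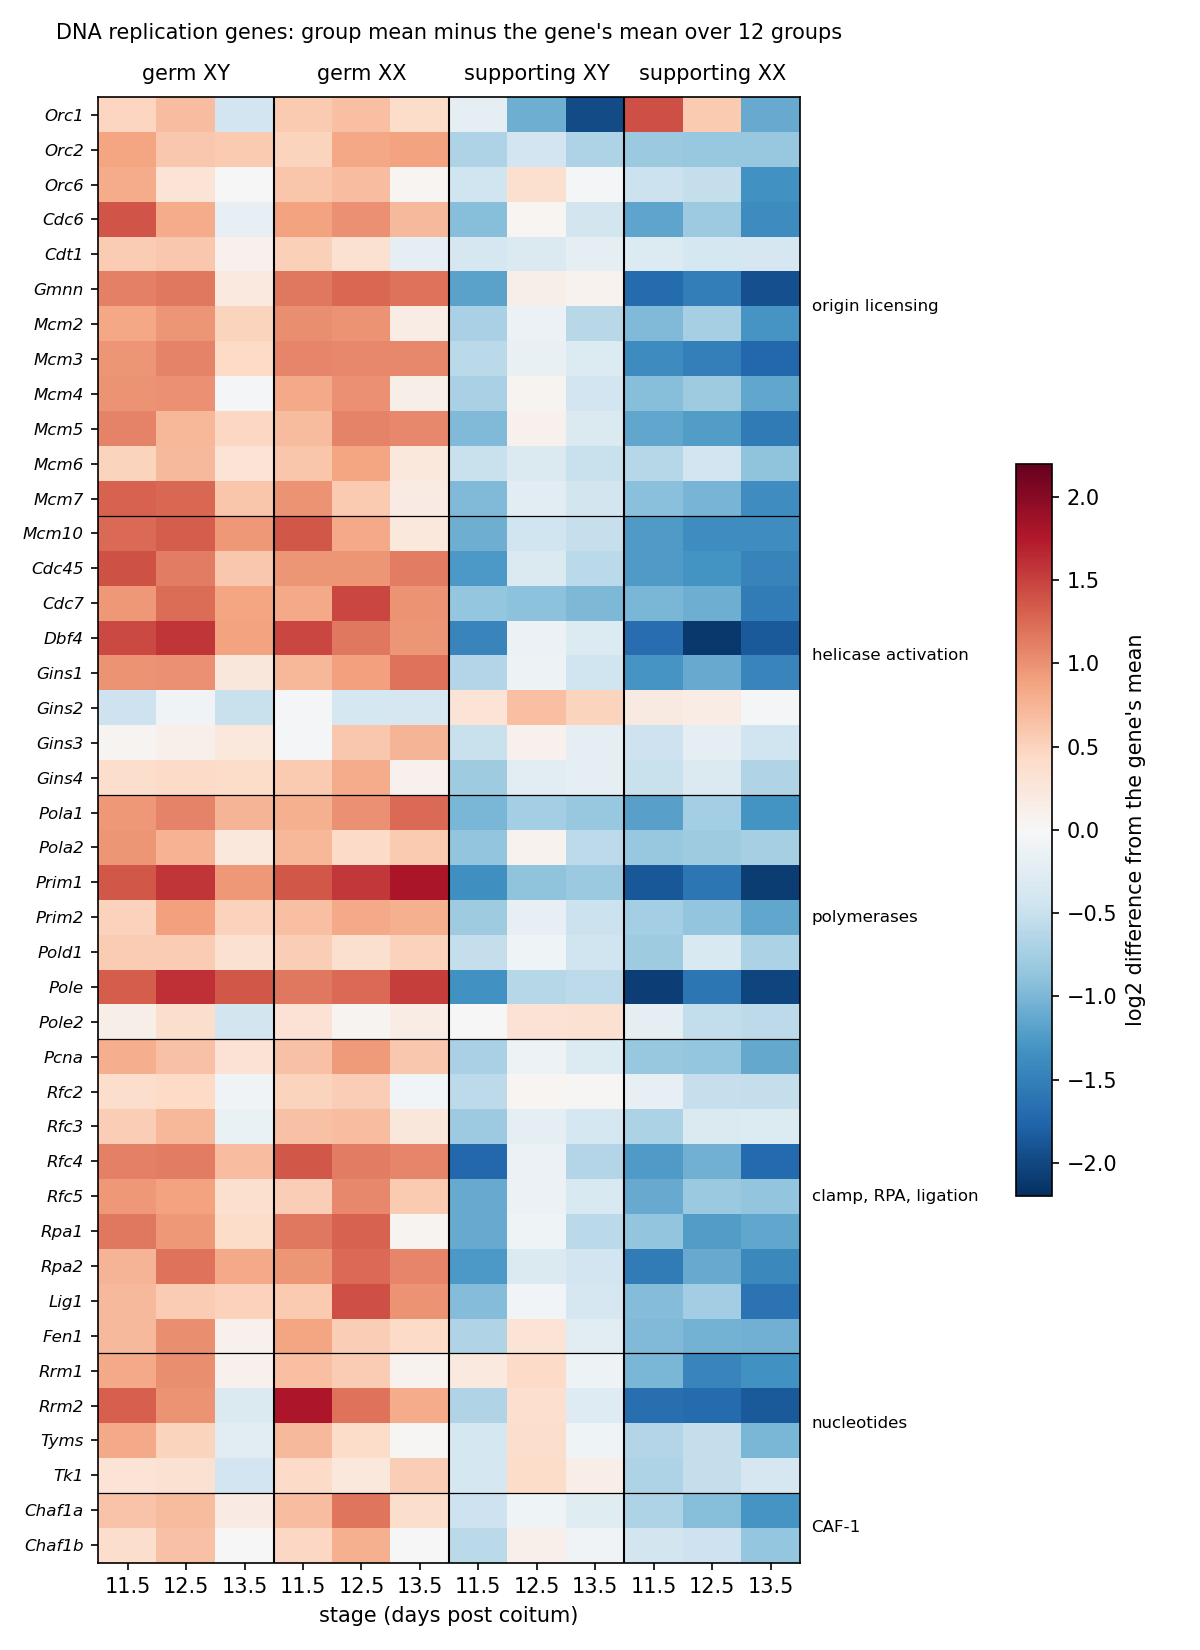
Group mean of each of the 42 replication genes minus that gene's mean over the 12 groups (log2, colour), with genes in rows by function and stages in columns for XY and XX germ cells and XY and XX supporting cells. Most rows are red in germ cells and blue in supporting cells, with the lowest value of 25 genes in XX supporting cells at 13.5 dpc; Orc1 and Gins2 run differently.

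Most genes followed the germ and supporting cell contrast. For 31 of the 42, the correlation across the 12 group means with the median of the other members was above 0.9 (median 0.96), a description over groups that share the germ and supporting cell contrast. The replication genes reached their lowest level in XX supporting cells at 13.5 dpc in 25 of 42 cases. Only Orc1 (r = 0.32) and Gins2 (r = -0.57) fell below 0.6 in this measure. Within the 6 supporting cell groups the correlation was above 0.9 for 24 genes, Gins2 included (r = 0.99), and was -0.40 for Orc1. Within the 6 germ cell groups it was above 0.9 for 4 genes, Orc1 included (r = 0.91), and was negative for Pole (r = -0.13) and Gins3 (r = -0.17). Gins2, a subunit of the GINS complex, had group means between 8.28 and 8.74 in germ cells and between 8.74 and 9.43 in supporting cells, a difference of -0.60 (SE 0.09, limma adjusted p = 1.71e-07), while Gins1, Gins3 and Gins4 were all higher in germ cells. The annotated range of Gins2 overlaps that of Gse1, and the part of that gene's RNA in its signal was not tested. Pole2, the second subunit of polymerase epsilon, was not called, with means of 7.80 in germ cells and 7.58 in supporting cells (adjusted p = 0.0966).

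In supporting cells the replication genes separated the sexes from 12.5 dpc. At 11.5 dpc, 4 of the 42 were higher in XY than in XX supporting cells and 1 was lower, where 1.62% and 1.71% of all genes were called (3.32% in either direction). At 12.5 dpc, 27 were higher and 1 lower, against 8.48% and 4.89% of all genes (13.4% in either direction). At 13.5 dpc, 26 were higher and 1 lower, against 7.21% and 5.02% of all genes (12.2% in either direction). The median difference of the 42 genes was 0.16, 0.81 and 0.81 at the 3 stages, against -0.06, 0.04 and -0.02 over all genes. With the row blocks aligned, 7, 36 and 35 genes were higher and 1 was lower at each stage. The shares over all genes above are of the deposited values and cannot be set against these aligned counts. Without the first or without the second XX array of 11.5 dpc, 3 genes were called at that stage. At 12.5 and 13.5 dpc, 23 genes were higher at both, which is 85.2% of the earlier and 88.5% of the later set.

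Geminin had the largest difference at 13.5 dpc. Gmnn stood at 7.33, 7.94 and 7.20 in the XY supporting arrays of 11.5 dpc, at 8.72, 9.03 and 8.67 at 12.5 dpc and at 8.71, 8.90 and 8.61 at 13.5 dpc. In XX supporting cells it stood at 6.86, 7.13 and 6.96 at 11.5 dpc, at 7.73, 6.65 and 7.09 at 12.5 dpc and at 6.97, 6.48 and 6.73 at 13.5 dpc. Every XY array lay above every XX array of its stage, by a narrow margin at 11.5 dpc and by a wide one later. The XY minus XX difference was 0.51 at 11.5 dpc (SE 0.24, limma adjusted p = 0.476), 1.65 at 12.5 dpc (SE 0.24, adjusted p = 5.67e-07) and 2.01 at 13.5 dpc (SE 0.24, adjusted p = 4.85e-09).

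Genes of nucleotide supply were called from 11.5 dpc on. Rrm2, the regulated subunit of ribonucleotide reductase that makes deoxyribonucleotides, stood at 8.35, 8.85 and 8.81 in XY supporting cells at 11.5 dpc, at 10.29, 9.40 and 9.45 at 12.5 dpc and at 8.95, 9.09 and 9.12 at 13.5 dpc. In XX supporting cells it stood at 7.81, 7.13 and 8.10 at 11.5 dpc, at 7.88, 7.29 and 7.75 at 12.5 dpc and at 7.87, 7.18 and 7.43 at 13.5 dpc. The groups did not overlap at any stage, and the lead of XY cells was 0.99 at 11.5 dpc (SE 0.23, limma adjusted p = 0.00568), 2.07 at 12.5 dpc (SE 0.23, adjusted p = 7.54e-10) and 1.56 at 13.5 dpc (SE 0.23, adjusted p = 8.89e-07). Rrm1, the large subunit of the same enzyme, was higher in XY cells by 1.21 at 11.5 dpc (SE 0.22, adjusted p = 0.000128), 1.88 at 12.5 dpc (SE 0.22, adjusted p = 1.36e-09) and 1.21 at 13.5 dpc (SE 0.22, adjusted p = 2.89e-05). Tyms, which makes thymidylate, was higher at 12.5 and 13.5 dpc, so that 4 of 4 and 3 of 4 genes of this class were called. The call for Rrm2 at 11.5 dpc was lost without the second XX array (0.72, adjusted p = 0.174).

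**Figure D2:**
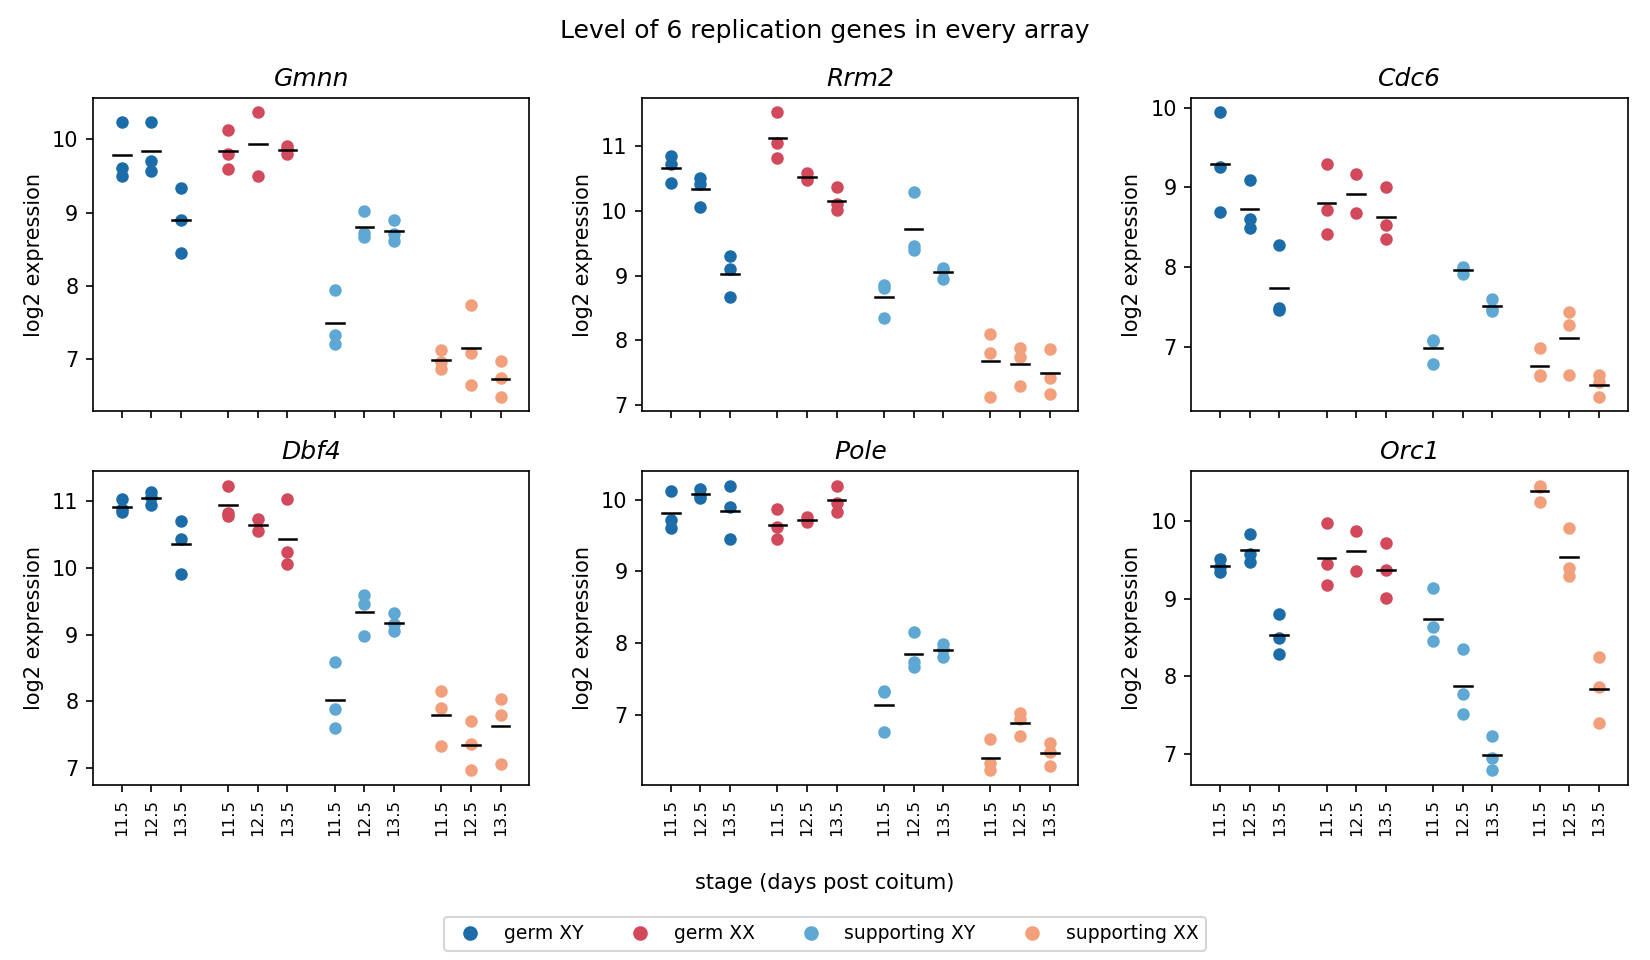
Log2 level of Gmnn, Rrm2, Cdc6, Dbf4, Pole and Orc1 in each of the 35 arrays (points, with the group mean as a line) by stage in XY germ, XX germ, XY supporting and XX supporting cells. XY supporting cells lie above XX supporting cells at 12.5 and 13.5 dpc in 5 of the 6 panels and below them for Orc1, which is highest in XX supporting cells at 11.5 dpc.

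Among the activators, Dbf4 stood at 7.59, 8.59 and 7.88 in XY supporting cells at 11.5 dpc, at 9.60, 8.98 and 9.46 at 12.5 dpc and at 9.16, 9.05 and 9.32 at 13.5 dpc. In XX supporting cells it stood at 7.91, 8.16 and 7.33 at 11.5 dpc, at 7.71, 7.36 and 6.97 at 12.5 dpc and at 8.04, 7.79 and 7.06 at 13.5 dpc. The sexes overlapped at 11.5 dpc and were fully apart later, with differences of 2.0 at 12.5 dpc (SE 0.25, limma adjusted p = 1.28e-08) and 1.55 at 13.5 dpc (SE 0.25, adjusted p = 4.7e-06). Cdc7, the kinase that Dbf4 activates, was not called at either stage with the deposited values. With the row blocks aligned Cdc7 was higher in XY cells at both, by 0.29 and 0.56 (limma adjusted p = 0.0484 and 0.000255). Among the polymerases, Pole was higher in XY cells by 0.73 at 11.5 dpc (SE 0.20, adjusted p = 0.0198), 0.96 at 12.5 dpc (SE 0.20, adjusted p = 0.000242) and 1.44 at 13.5 dpc (SE 0.20, adjusted p = 1.08e-07). Of the MCM helicase, Mcm3, Mcm4, Mcm5 and Mcm7 were called higher at both later stages, Mcm2 at 13.5 dpc and Mcm6 at neither. Alignment also called Mcm2 at 12.5 dpc (adjusted p = 0.00753) and Mcm6 at 13.5 dpc (adjusted p = 0.0333). Mcm3 led, by 0.80, 1.35 and 1.43 at the 3 stages (SE 0.23 each; adjusted p = 0.0361, 9.11e-06 and 3.46e-06). In the other classes, 7 of 9 clamp and processing genes were higher at 12.5 dpc and 5 of 9 at 13.5 dpc. At 11.5 dpc the calls were lost for Pole without the first or second array of either sex (adjusted p = 0.111 to 0.158), and for Mcm3 without the first or the third XX or the second or the third XY array (adjusted p = 0.0975 to 0.324).

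**Figure D3:**
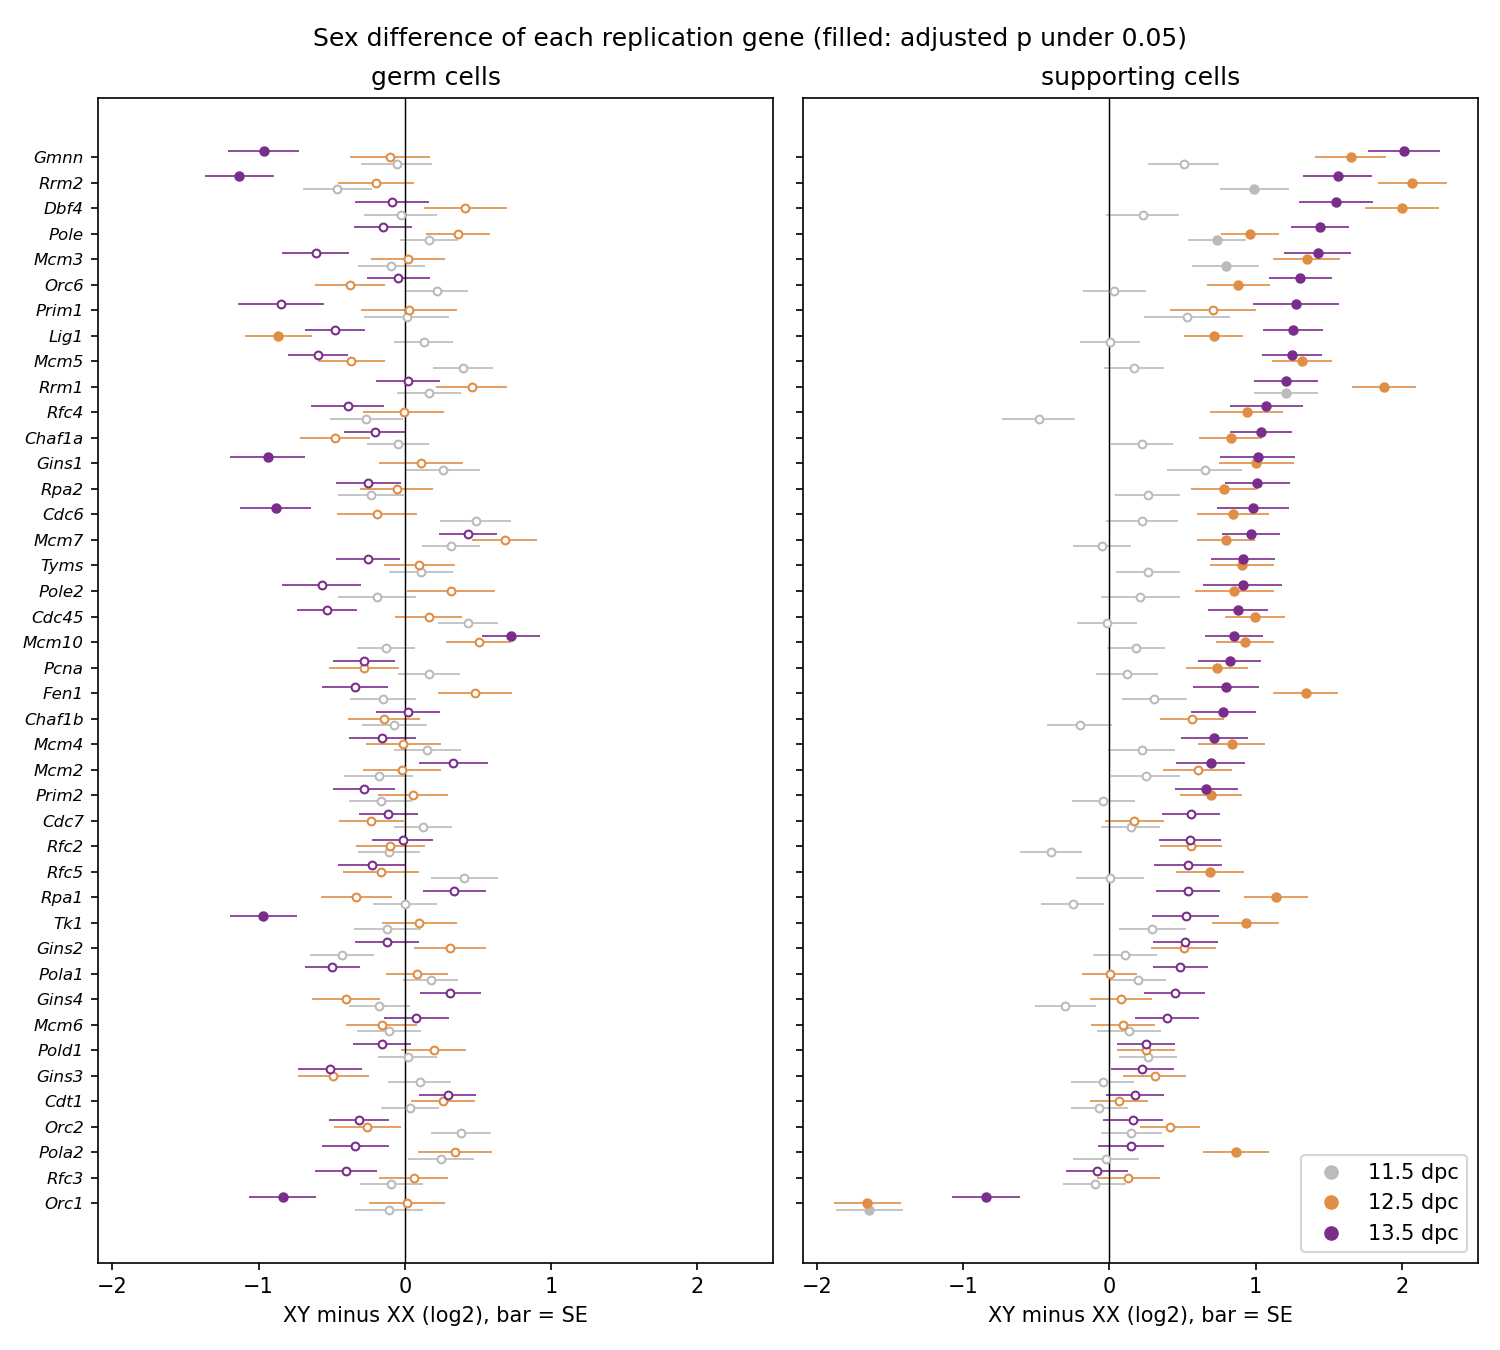
XY minus XX difference (log2, with SE) of each of the 42 replication genes in germ cells and in supporting cells at the 3 stages, where filled points passed the test. In supporting cells 27 and 26 filled points lie to the right at 12.5 and 13.5 dpc, and Orc1 is the filled point to the left at every stage. In germ cells 6 filled points lie to the left at 13.5 dpc and 1 to the right.

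Lists of related genes, drawn up with earlier results of these data known, were read beside these differences. Of 24 mitosis genes, 9 were higher in XY supporting cells at 11.5 dpc and 24 at both later stages, with medians of 0.66, 3.05 and 2.95. Of 32 further replication genes, 0 were called at 11.5 dpc (7 at an unadjusted p under 0.05), and 12 and 10 were higher and 0 lower at 12.5 and 13.5 dpc. The clamp loading factor gene Dscc1 had the widest difference of them, 2.66 at 12.5 dpc (SE 0.28, limma adjusted p = 9.08e-11). Ccna2, the S phase cyclin A, was higher by 2.69 at 12.5 dpc (SE 0.26, adjusted p = 4.32e-12) and by 3.01 at 13.5 dpc (SE 0.26, adjusted p = 9.89e-14). Samhd1, which breaks deoxyribonucleotides down, went the other way, with means of 8.72 in XY and 10.71 in XX supporting cells at 13.5 dpc, a difference of -1.99 (SE 0.20, adjusted p = 1.4e-11). At 13.5 dpc the median of the 30 S phase regulators, Ccna2 among them, averaged 8.21 in XY and 7.74 in XX supporting cells. That of the 22 nucleotide supply genes, Samhd1 among them, averaged 8.98 in XY and 8.79 in XX cells. Of 6 CDK inhibitor genes, 0 were higher and 2 lower at each stage, and the list's median averaged 7.04 in XY and 6.94 in XX arrays at 12.5 dpc. Cdkn1b, which encodes the CDK inhibitor p27, averaged 9.38 in XY and 12.33 in XX supporting cells at 12.5 dpc, a difference of -2.95 (SE 0.33, adjusted p = 5.87e-10).

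**Figure D4:**
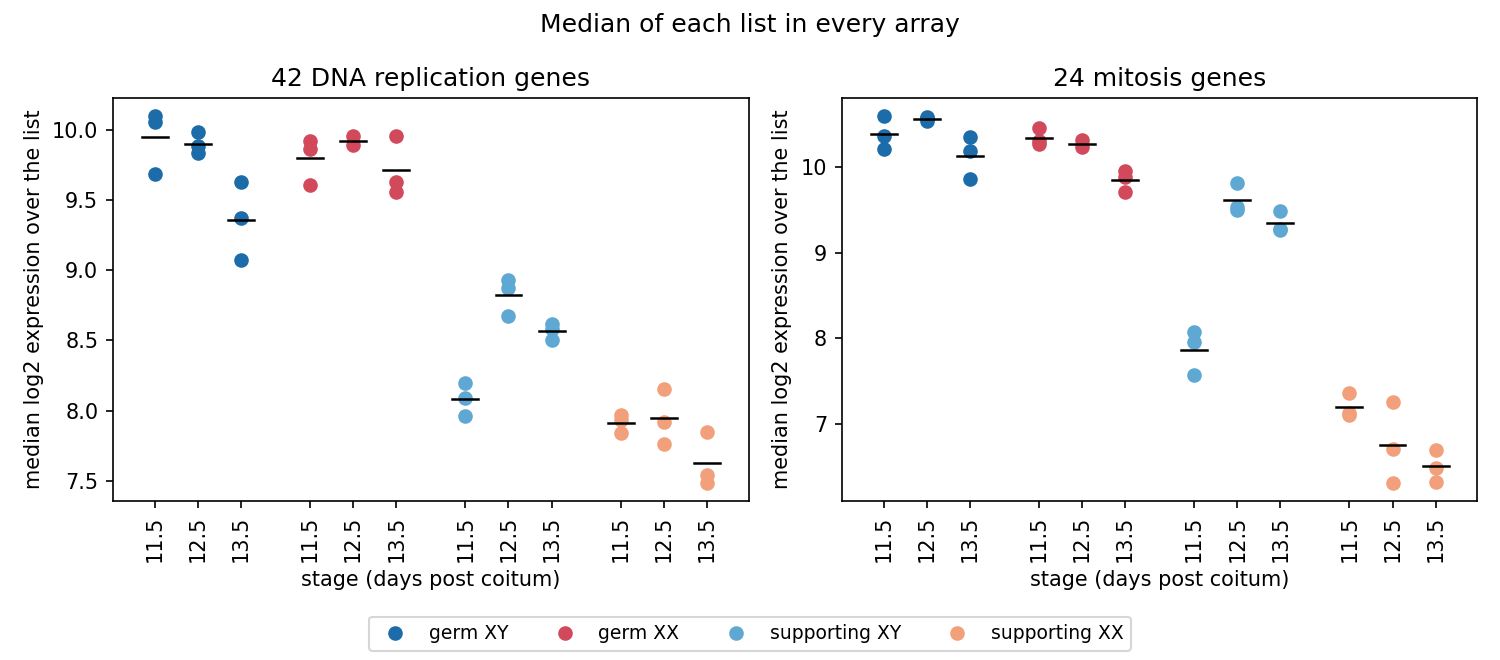
Median log2 level over the 42 replication genes (left) and over 24 mitosis genes (right) in each array (points, with the group mean as a line) by stage in XY germ, XX germ, XY supporting and XX supporting cells. In supporting cells at 13.5 dpc the replication median averages 8.57 in XY and 7.63 in XX arrays, and the mitosis median 9.34 in XY and 6.50 in XX arrays.

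Markers of other cells were read in the same arrays. Of 16 germ cell markers, 0 were higher in XY supporting cells at 12.5 or 13.5 dpc by limma (0 and 2 at an unadjusted p under 0.05 in either direction), and their median lay between 6.01 and 6.17 in those XY arrays and between 6.01 and 6.61 in the XX arrays. Of 5 steroidogenic markers, 4 were higher in XY supporting cells at 13.5 dpc, with an array median between 7.30 and 7.76 in XY and between 5.53 and 5.60 in XX cells. At 12.5 dpc 1 of the 5 was higher, with array medians of 5.59 to 6.23 in XY and 5.76 to 6.24 in XX cells. Star, a cholesterol carrier of steroidogenic cells, averaged 7.45 ± 0.14 in XY and 6.53 ± 0.40 in XX supporting cells at that stage (SD, n = 3 each). Of 12 stromal markers, 3 were higher and 1 lower at 12.5 dpc, with array medians of 7.12 to 7.47 in XY and 6.77 to 7.12 in XX cells. At 13.5 dpc 2 were higher and 1 lower, with array medians of 7.01 to 7.19 in XY and 6.91 to 7.07 in XX cells. Of 6 erythroid markers, 3 were higher in XY supporting cells at 12.5 dpc, with array medians of 6.89 to 7.46 in XY and 6.10 to 6.80 in XX cells. Of 10 dissociation stress genes, 5 were lower in XY supporting cells at 13.5 dpc, with array medians of 8.26 to 8.41 in XY and 8.90 to 9.39 in XX cells. The part of the steroidogenic, stromal, erythroid and stress genes in the replication result was not tested.

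The stage changes of supporting cells differed between the sexes. In XY supporting cells, 8 replication genes were higher at 13.5 than at 11.5 dpc and 1 was lower, where 6.60% and 2.27% of all genes were called (8.87% in either direction). Aligning the row blocks gave 17 higher and 1 lower, and without the third XY array of 11.5 dpc the total called fell to 5. Gmnn rose by 1.25 (SE 0.24, limma adjusted p = 0.000188), Dbf4 by 1.15 (SE 0.25, adjusted p = 0.000986) and Rfc4 by 1.08 (SE 0.25, adjusted p = 0.00172). Here the stages too coincide with the 2 reporter lines and cannot be told apart from them. In the same XY arrays 2 of 16 germ cell markers and 3 of 5 steroidogenic markers were higher at 13.5 dpc. Dppa3, a germ cell marker, averaged 7.76 ± 0.04 at 13.5 dpc and 6.04 ± 0.13 at 11.5 dpc (SD, n = 3 each), and steroidogenic Cyp17a1 averaged 7.47 ± 0.26 at 13.5 dpc and 5.23 ± 0.19 at 11.5 dpc. The median of the germ cell list lay between 6.10 and 6.17 at 13.5 dpc and between 5.84 and 6.10 at 11.5 dpc, and that of the steroidogenic list between 7.30 and 7.76 at 13.5 dpc and between 6.72 and 7.06 at 11.5 dpc. The part of these markers in the stage change was not tested. In XX supporting cells, of a single line, 0 genes were higher and 3 lower, where 2.37% and 1.73% of all genes were called (4.1% in either direction). Alignment gave 1 higher and 5 lower, the 3 among them. As deposited, they were Orc1, Orc6, another ORC subunit, at -0.85 (SE 0.21, adjusted p = 0.00864) and Lig1, the ligase that seals Okazaki fragments, at -0.67 (SE 0.20, adjusted p = 0.0466). Without the second XX array of 11.5 dpc, or without that of 13.5 dpc, Orc1 alone was called (Orc6 adjusted p = 0.118 in both). Lig1 was also lost without the first or the third array of 11.5 dpc or the first of 13.5 dpc (adjusted p = 0.073 to 0.207).

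The change of the sex difference from 11.5 to 13.5 dpc was also tested in supporting cells. Between these stages the XY arrays changed reporter line and strain and the XX arrays did not, so it cannot be told apart from the line. The change was positive for 7 genes and negative for 0, where 2.71% and 1.55% of all genes were called (4.26% in either direction). An unadjusted p under 0.05 was found for 21 of the 42. Rfc4 changed by 1.56 (SE 0.35, limma adjusted p = 0.00261), Gmnn by 1.5 (SE 0.34, adjusted p = 0.00316) and Dbf4 by 1.32 (SE 0.36, adjusted p = 0.0174). Orc6, Lig1, Mcm5 and Mcm7 made up the rest. The Dbf4 value missed the threshold without the second XX or first XY array of 11.5 dpc or the third XX or XY array of 13.5 dpc (adjusted p = 0.0559 to 0.126). Mcm5 missed it without the second XX or the third XY array of 11.5 dpc or the second array of either sex of 13.5 dpc (adjusted p = 0.0614 to 0.0877). With the row blocks aligned 18 were positive and 0 negative, and 23 of 24 mitosis genes were positive with the deposited values.

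Orc1 ran against the other members in supporting cells. It encodes the largest ORC subunit, which binds origins in G1. It stood at 9.13, 8.63 and 8.45 in XY supporting cells at 11.5 dpc, at 8.35, 7.51 and 7.78 at 12.5 dpc and at 6.79, 7.24 and 6.95 at 13.5 dpc. In XX supporting cells it stood at 10.24, 10.44 and 10.45 at 11.5 dpc, at 9.40, 9.90 and 9.30 at 12.5 dpc and at 7.86, 7.40 and 8.25 at 13.5 dpc. The XX arrays lay above the XY arrays at every stage without overlap, and the 3 XX arrays of 11.5 dpc were the highest of all 35, germ cells included.

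The Orc1 difference, XY minus XX, was -1.64 at 11.5 dpc (SE 0.23, limma adjusted p = 1.35e-06), -1.65 at 12.5 dpc (SE 0.23, adjusted p = 1.62e-07) and -0.85 at 13.5 dpc (SE 0.23, adjusted p = 0.0077). The last of these was not called without the third XX or without the first XY array of 13.5 dpc. At 11.5 dpc both sexes carried the same reporter on the same descent. From 11.5 to 13.5 dpc Orc1 changed by -1.75 in XY supporting cells (SE 0.23, adjusted p = 1.13e-07) and by -2.54 in XX supporting cells (SE 0.23, adjusted p = 4.53e-12). Orc2 was called in none of these 5 comparisons as deposited. With the row blocks aligned it was higher in XY cells at 12.5 dpc (0.48, limma adjusted p = 0.000424). Orc6 was higher in XY cells at 12.5 and 13.5 dpc, against the direction of Orc1. In XX supporting cells Orc6 fell from 11.5 to 13.5 dpc as Orc1 did, by -0.85, so it shared only a part of this course. The annotated range of Orc1 overlaps that of Prpf38a, a splicing factor gene. Prpf38a averaged 10.52, 10.76 and 10.33 in XY supporting cells at the 3 stages and 11.24, 11.32 and 10.47 in XX supporting cells. Its mean was higher in XX cells at each stage, as that of Orc1 was, over a narrower range. The part of Prpf38a in the Orc1 signal was not tested.

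Replication transcripts fell in XY germ cells at 13.5 dpc. Against 11.5 dpc, 0 of the 42 genes were higher and 15 lower, where 2.90% and 4.19% of all genes were called (7.09% in either direction), and the median change was -0.51, against -0.03 over all genes. All 4 nucleotide genes and 7 of 12 licensing genes fell, but 1 of 8 activators, 1 of 7 polymerase genes and 2 of 9 clamp and processing genes. Of the nucleotide genes, Tk1 averaged 8.15 at 13.5 dpc and 8.87 at 11.5 dpc on the probe set used, and 7.81 at 13.5 dpc and 8.01 at 11.5 dpc on its other probe set, so its call is uncertain. Aligning the row blocks gave 22 lower and 0 higher. The count rested on single arrays: 8 were called without the first XY array of 11.5 dpc, 6 without the third array of that stage and 4 without the first of 13.5 dpc. With the left-out XX array in the fit, 8 were called. Of 18 supporting cell markers, 1 was higher and 1 lower in the same XY germ arrays, with array medians of 6.59 to 6.92 at 13.5 dpc and 6.50 to 7.03 at 11.5 dpc. Cst9, a Sertoli cell gene, averaged 7.68 ± 0.38 at 13.5 dpc and 5.53 ± 0.94 at 11.5 dpc (SD, n = 3 each). Of 10 stress genes 1 was lower, with array medians of 6.87 to 7.41 at 13.5 dpc and 7.26 to 7.82 at 11.5 dpc. The part of these genes in the replication change was not tested.

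Rrm2 stood at 10.84, 10.72 and 10.43 in XY germ cells at 11.5 dpc, at 10.42, 10.05 and 10.51 at 12.5 dpc and at 8.68, 9.30 and 9.10 at 13.5 dpc. The first 2 stages overlapped and the last lay below both. The change from 11.5 to 13.5 dpc was -1.64 (SE 0.23, limma adjusted p = 1e-06). Cdc6, which loads MCM rings with ORC, stood at 9.25, 8.69 and 9.94 at 11.5 dpc, at 8.49, 9.09 and 8.61 at 12.5 dpc and at 7.46, 8.28 and 7.49 at 13.5 dpc. No array of 13.5 dpc reached those of the earlier stages, and the change from 11.5 dpc was -1.55 (SE 0.24, adjusted p = 6.8e-06). Tyms changed by -1.05 (SE 0.22, adjusted p = 0.000618), Mcm4 by -1.01 (SE 0.23, adjusted p = 0.00204) and Gmnn by -0.89 (SE 0.24, adjusted p = 0.0137). The Gmnn call was lost without the first array of either stage (adjusted p = 0.164 in both). Pole did not follow, with means of 9.85 at 13.5 dpc and 9.81 at 11.5 dpc (adjusted p = 0.983).

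The last 2 stages were also compared. From 12.5 to 13.5 dpc, 0 genes were higher and 8 lower in XY germ cells, where 0.858% and 1.52% of all genes were called (2.38% in either direction). Alignment gave 15 lower and 0 higher. As deposited, Rrm2 changed by -1.30 (SE 0.23, limma adjusted p = 0.000294), Orc1 by -1.10 (SE 0.23, adjusted p = 0.00256) and Mcm4 by -1.02 (SE 0.23, adjusted p = 0.00509). Without the first XY array of 13.5 dpc, 2 genes were called, and Mcm4 missed the threshold (adjusted p = 0.0568). Among regulators of S phase entry, Ccne1, which encodes cyclin E1, changed from 11.5 to 13.5 dpc by -1.84 (SE 0.24, adjusted p = 9.91e-08), the retinoblastoma gene Rb1 by 1.47 (SE 0.20, adjusted p = 4.27e-07) and Cdkn1b by 1.09 (SE 0.33, adjusted p = 0.0316). The median of the 30 S phase regulators averaged 8.28 at 13.5 dpc and 8.67 at 11.5 dpc. That of 6 CDK inhibitor genes averaged 7.37 at 13.5 dpc and 7.09 at 11.5 dpc. Of 24 mitosis genes, 2 were lower and 0 higher from 11.5 to 13.5 dpc. Uhrf1, which brings the maintenance methyltransferase to replicated DNA, was higher at 13.5 dpc by 1.03 (SE 0.22, adjusted p = 0.000757).

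In XX germ cells 9 of the 42 genes changed. From 11.5 to 13.5 dpc, 1 gene was higher and 8 lower, where 5.83% and 9.45% of all genes were called (15.3% in either direction), so the share of lower members stood above the background. All genes had a median change of -0.14 here, and the 42 genes one of -0.17. Mcm10, which helps to fire the helicase, stood at 9.24, 9.37 and 9.46 in XX germ cells at 11.5 dpc, at 8.94 and 8.70 at 12.5 dpc and at 8.64, 8.29 and 7.74 at 13.5 dpc. Each stage lay below the one before without overlap, and the change over the interval was -1.14 (SE 0.20, limma adjusted p = 2.69e-05). Rpa1, the large RPA subunit, stood at 10.25, 10.11 and 9.75 at 11.5 dpc, at 10.02 and 10.31 at 12.5 dpc and at 9.42, 8.62 and 8.77 at 13.5 dpc. The last stage lay below the others, with a change of -1.10 (SE 0.22, adjusted p = 0.000152). Rrm2 changed by -0.97 (SE 0.23, adjusted p = 0.00209). In the same XX arrays 4 of 10 stress genes were lower, with array medians of 6.70 to 7.20 at 13.5 dpc and 7.41 to 7.83 at 11.5 dpc, and their part in the change was not tested.

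Gins3 was the gene that rose in XX germ cells, by 0.78 (SE 0.22, limma adjusted p = 0.00747). Its call was lost without the third array of 11.5 dpc or the second of 13.5 dpc (adjusted p = 0.107 and 0.0525). Gmnn averaged 9.86 at 13.5 dpc and 9.84 at 11.5 dpc in XX germ cells (adjusted p = 0.951). Of the 8 genes lower in XX germ cells, 5 were also among the 15 lower in XY germ cells (62.5% and 33.3%), namely Mcm4, Mcm7, Rpa1, Rrm2 and Tyms. With the row blocks aligned 3 were higher and 9 lower, with Mcm4 and Mcm7 no longer called, and without the third XX array of 13.5 dpc 5 genes were called. Of 22 meiosis genes, 21 were higher and 0 lower over the same interval. From 12.5 to 13.5 dpc, 0 genes were higher and 6 lower, where 1.63% and 6.75% of all genes were called (8.38% in either direction). Aligned row blocks gave 1 higher and 4 lower, with 2 of the 6 among them, and Chaf1a, Gins4, Mcm2 and Mcm4 lost. As deposited, Rpa1 had the largest change, -1.23 (SE 0.24, adjusted p = 0.000617), and Chaf1a, the large CAF-1 subunit, at -0.79 (SE 0.24, adjusted p = 0.0289), stood at 0.045 with the row blocks aligned. The Chaf1a call was also lost without the second array of 12.5 dpc or the second or the third of 13.5 dpc (adjusted p = 0.131 to 0.252). The count rested on single arrays, at 2 without the first XX array of 12.5 dpc, at 10 and 2 without the first and the second of 13.5 dpc and at 1 without the third.

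Between XY and XX germ cells few replication genes were called before 13.5 dpc. At 11.5 dpc, 0 were called by limma (1 at an unadjusted p under 0.05), where 0.0251% of all genes were higher and 0% lower. At 12.5 dpc, 0 were higher and 1 lower, where 0.426% and 1.37% were called (1.8% in either direction), so the share of members was near the background. The lower gene, Lig1, averaged 10.05 in XY and 10.92 in XX germ cells, a difference of -0.86 (SE 0.23, limma adjusted p = 0.0287), which was -0.26 (adjusted p = 0.22) with the row blocks aligned. Without either XX array of 12.5 dpc, or without the first or second XY array, 0 were called. With the left-out XX array in the fit, 3 genes were higher in XY cells and 0 lower.

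At 13.5 dpc, 1 replication gene was higher in XY than in XX germ cells and 6 were lower, where 5.28% and 3.93% of all genes were called (9.21% in either direction). Rrm2 stood at 8.68, 9.30 and 9.10 in XY germ cells, against 10.37, 10.10 and 10.01 in XX germ cells, a difference of -1.13 (SE 0.23, limma adjusted p = 0.000554). Gmnn stood at 8.45, 9.33 and 8.90 in XY germ cells, against 9.87, 9.91 and 9.80 in XX germ cells, a difference of -0.96 (SE 0.24, adjusted p = 0.00507). Every XX array lay above every XY array for both genes. Cdc6 at -0.88 (SE 0.24, adjusted p = 0.0121), Orc1 at -0.84 (SE 0.23, adjusted p = 0.012), Gins1 at -0.94 (SE 0.26, adjusted p = 0.0114) and Tk1, the thymidine kinase of S phase, at -0.97 (SE 0.23, adjusted p = 0.00276) were the other lower genes. Without the first XY array, Gmnn, Cdc6, Orc1 and Gins1 missed the threshold (adjusted p = 0.0533 to 0.0692). Cdc6 was also lost without the third XY array, Cdc6 and Gins1 without the second XX array and Orc1 without the first (adjusted p = 0.0756 to 0.129). Array medians of 18 supporting cell markers were 6.59 to 6.92 in XY and 6.46 to 6.86 in XX germ cells. Cst9 alone averaged 7.68 ± 0.38 in XY and 4.48 ± 0.36 in XX germ cells (SD, n = 3 each). At 12.5 dpc it averaged 7.54 in XY and 4.66 in XX germ cells. The part of supporting cell RNA in these sex differences was not tested.

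The call for Tk1 was uncertain. Its second probe set averaged 7.81 in XY and 8.03 in XX germ cells, and the difference was -0.59 and not past the test with the mean of both. Mcm10 was the gene higher in XY germ cells, by 0.72 (SE 0.20, limma adjusted p = 0.0114). With the row blocks aligned, 3 replication genes were higher and 16 lower, and 3 were called in all without the first XY array of 13.5 dpc. Mitosis genes did not share the direction, with 3 of 24 higher in XY germ cells and 0 lower. Of 22 meiosis genes, 21 were lower in XY germ cells and 0 higher. Among the S phase regulators, Ccne2, which encodes cyclin E2, averaged 8.06 in XY and 9.61 in XX germ cells, a difference of -1.55 (SE 0.28, adjusted p = 6.6e-05). The median of the 30 regulators averaged 8.28 in XY and 8.39 in XX germ cells. Ticrr, which helps to load Cdc45 at origins, averaged 8.80 in XY and 10.05 in XX germ cells, a difference of -1.25 (SE 0.25, limma adjusted p = 0.000268). The median of the 32 further replication genes, Ticrr among them, averaged 9.51 in XY and 9.80 in XX germ cells.

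The change of the germ cell sex difference from 11.5 to 13.5 dpc passed the test for 0 genes upward and 2 downward, where 1.58% and 1.66% of all genes were called (3.24% in either direction). Cdc6 changed by -1.37 (SE 0.35, limma adjusted p = 0.0137) and Mcm5 by -0.99 (SE 0.29, adjusted p = 0.0443). The Mcm5 call was lost without any of 8 arrays (adjusted p = 0.0881 to 0.154) and the Cdc6 call without any of 4 (adjusted p = 0.055 to 0.103). Aligned row blocks gave 8 calls, without Mcm5. The count lay between 0 and 5 when single arrays were left out, with 5 without the second XY array of 11.5 dpc, 4 without that of 13.5 dpc, and 1 without the first XY array of 11.5 dpc or the third XX array of 13.5 dpc. It was 0 without the third XX array or the third XY array of 11.5 dpc, or without the second XX array or the third XY array of 13.5 dpc.

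In XY gonads the stage changes of the 2 cell types differed for many of the genes. The stage change of germ cells minus that of supporting cells, from 11.5 to 13.5 dpc, was negative for 20 of the 42 genes and positive for 0, where 7.28% and 2.54% of all genes were called (9.82% in either direction). Gmnn had the largest value, -2.14 (SE 0.34, limma adjusted p = 9.05e-06), made up of -0.89 in germ cells and 1.25 in supporting cells. For Cdc6 the value was -2.08 (SE 0.35, adjusted p = 1.63e-05), from -1.55 in germ cells and 0.53 in supporting cells, where the change did not pass the test (adjusted p = 0.229). For Rrm2 it was -2.02 (SE 0.33, adjusted p = 1.33e-05), from -1.64 in germ cells and 0.38 in supporting cells, where it did not pass either (adjusted p = 0.47). After alignment of the row blocks 31 were negative and 1, Orc1, positive. The supporting cell side of this contrast spans both reporter lines.

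**Figure D5:**
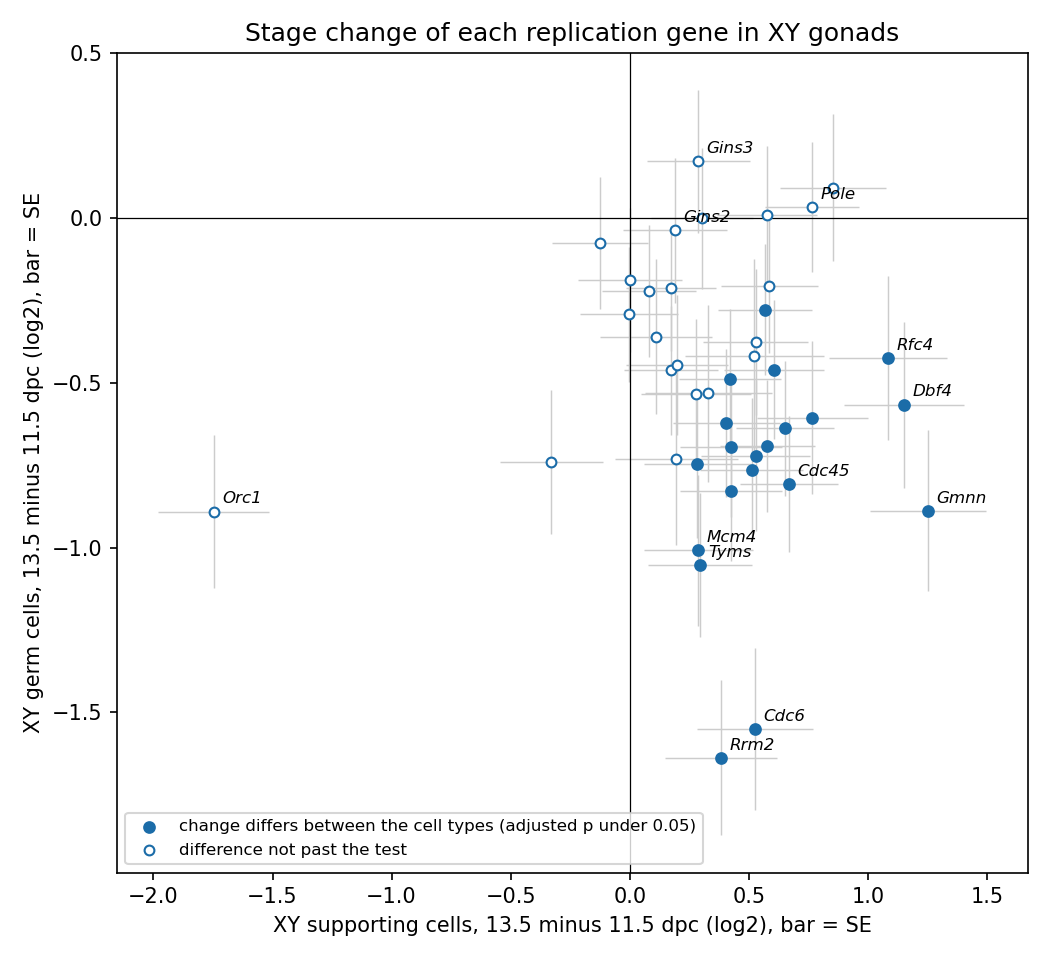
Change from 11.5 to 13.5 dpc (log2, with SE) of each of the 42 replication genes in XY germ cells (vertical) against XY supporting cells (horizontal), where filled points are the 20 genes whose change differed between the cell types. Most points lie to the lower right, below 0 in germ cells and above 0 in supporting cells, and Orc1 lies farthest to the left, at -1.75 in supporting cells.

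In XX gonads the same contrast was positive for 2 genes and negative for 1, where 3.29% and 5.55% of all genes were called (8.83% in either direction). Alignment gave 5 positive and 3 negative. Orc1 had the largest value, 2.38 (SE 0.33, limma adjusted p = 5.08e-07), since it changed by -0.16 in germ cells and by -2.54 in supporting cells. Lig1 was positive at 1.06 (SE 0.29, adjusted p = 0.00987) and Mcm10 negative at -1.03 (SE 0.28, adjusted p = 0.0115). Without the first XX germ cell array of 13.5 dpc, 7 genes were called, and without the third Mcm10 was lost (adjusted p = 0.0947). Pold1, the catalytic subunit of polymerase delta, had the smallest stage change of the set. Its mean ranged from 8.44 to 8.67 in XY germ cells, from 8.46 to 8.65 in XX germ cells, from 7.58 to 8.01 in XY supporting cells and from 7.32 to 7.76 in XX supporting cells, and with the deposited values it passed no test of sex or stage. With the row blocks aligned it was higher in XY than in XX supporting cells at the 3 stages, by 0.35, 0.40 and 0.40 (adjusted p = 0.0142, 0.00144 and 0.00146). It was then also lower in XY germ cells at 13.5 than at 11.5 dpc, by -0.34 (adjusted p = 0.0121), and passed the XY contrast of stage changes at -0.42 (adjusted p = 0.0228).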

How the data were processed

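Sorted cells were profiled on Affymetrix Mouse Gene ST arrays. The deposited values are on a log2 scale, 1 for each probe set. RMA is the method that the submitters' processing notes name, and its version and the genome build are not given in the sources used here. The table held 35557 probe sets on 36 arrays. Probe sets with 1 symbol in GEO's platform annotation were kept, the brightest for each gene, which left 19938 genes. Pcna and Tk1 had 2 probe sets each.

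The test was limma 3.58.1, run in R 4.3.3 (12 group means, 35 arrays, 23 residual degrees of freedom, empirical Bayes). Two-sided p-values were adjusted by Benjamini-Hochberg over all genes of a comparison, and an adjusted p under 0.05 was called. The script was tested on simulated data. Alternatives were all 36 arrays, arrays centred, quantile normalisation, row blocks aligned, genes with a mean of at least 6, array weights, the mean of all probe sets, only the groups compared, a replicate block and leaving out each array. Within each array, 107 blocks of rows in all lay on their own linear scale (slopes 1.0099 to 1.059, medians of an array's blocks 0.02 to 0.75 apart). Aligning divided each by its slope and set one median.

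Named genes were, per comparison, up to 6 called members with the largest difference, members against the common direction, the member of each class with the widest and the gene with the smallest stage change, and up to 3 genes of each related list. The members and lists were chosen with earlier results of these data known. The labels do not say that arrays of a group came from separate pools, so the spread behind each p-value may be technical. No batch is given in the sources used here. The number of arrays limits the precision. Interstitial cells were not analysed here.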

Additional observations from a re-analysis of the deposited data

Results flagged for a closer look

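In 4 tests of a difference between groups, members of the set were called. The change of the supporting cell sex difference from 11.5 to 13.5 dpc passed for 7 genes, with Rfc4 at 1.56, Gmnn at 1.5 and Dbf4 at 1.32. In germ cells the same change passed for 2 genes, Cdc6 at -1.37 and Mcm5 at -0.99. The Mcm5 call was lost with the row blocks aligned and without any of 8 arrays, and the Cdc6 call without any of 4. In XY gonads the stage change differed between germ and supporting cells for 20 genes, with Gmnn at -2.14, Cdc6 at -2.08 and Rrm2 at -2.02. In XX gonads it differed for 3 genes, Orc1 at 2.38, Lig1 at 1.06 and Mcm10 at -1.03. All values are limma log2 differences of differences. The supporting cell sex difference and the XY contrast span both reporter lines and cannot be told apart from them. Over all genes, 4.26%, 3.24%, 9.82% and 8.83% were called in these 4 tests, in this order and in either direction. The share of members stood near that of all genes in germ cells and below it in XX gonads. Groups of 3 arrays are too small for a check of single outlying arrays.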

How the results depend on the processing

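All counts here are replication genes called by limma at an adjusted p under 0.05, and the cause of a shift was not tested unless fewer samples made it. The germ minus supporting count was 41 under every setting except leaving out single arrays (41 to 42), and the XY minus XX counts of supporting cells at 12.5 and 13.5 dpc stayed within 1.5 times of 28 and 27 under every setting run.

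With all 36 arrays, the germ XY minus XX count was 3 at 12.5 dpc (1 as reported, with no gene shared) and 3 at 13.5 dpc (7), the XY germ change from 11.5 to 13.5 dpc 8 (15), the supporting XY minus XX count at 11.5 dpc 3 (5), the XY supporting stage change 4 (9), the germ and supporting changes of the sex difference 0 and 2 (2 and 7) and the XX cell type contrast of stage changes 1 (3). With array weights, germ XY minus XX gave 0 at 12.5 and 14 at 13.5 dpc, the XX germ stage change 14 (9), the XX and XY supporting stage changes 13 (3) and 23, the germ and supporting changes of the sex difference 6 and 25 and the XX contrast 9. With arrays centred, germ XY minus XX gave 2 and 12, the XX germ change from 12.5 to 13.5 dpc 3 (6), the germ change of the sex difference 5 and the XX contrast 5. With quantile normalisation, these were 2 and 12, 2, 3 and 7. With only the groups compared in the fit, germ XY minus XX at 12.5 dpc gave 0, supporting XY minus XX at 11.5 dpc 2, the XY germ stage change 8, the XX and XY supporting stage changes 5 and 16, the XX germ change from 12.5 to 13.5 dpc 2 and the supporting change of the sex difference 13. With row blocks aligned, germ XY minus XX gave 0 and 19, supporting XY minus XX at 11.5 dpc 8, the XX and XY supporting stage changes 6 and 18, the XY germ change from 12.5 to 13.5 dpc 15 (8), the germ and supporting changes of the sex difference 8 and 18 and the XX and XY contrasts 8 and 32 (20). Chaf1a in XX germ cells from 12.5 to 13.5 dpc stood at 0.045 there and at -0.79 as deposited.

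Leaving out 1 array at a time gave 0 to 0, 0 to 1 and 3 to 9 for germ XY minus XX at the 3 stages and 3 to 5, 20 to 30 and 22 to 27 for supporting XY minus XX. It gave 5 to 13 and 4 to 16 for the XX and XY germ changes from 11.5 dpc, 1 to 10 and 2 to 12 for those from 12.5 dpc, and 1 to 3 and 5 to 10 for the XX and XY supporting changes. The germ and supporting changes of the sex difference gave 0 to 5 and 5 to 9, and the XX and XY contrasts 2 to 7 and 14 to 25. Of the values of single named genes without 1 array, 662 kept direction and side of the threshold and 87 missed it, and under the other settings 654 kept both, 59 missed the threshold and 1 reversed.

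Replicate numbers did not pair the samples: 3 of 34 pairs correlated above 0.1 (-0.524 to 0.203). With the replicate block the germ XY minus XX count at 13.5 dpc was 8, the XX germ change from 12.5 to 13.5 dpc 4, and no count moved by over 1.5 times. Over all genes, the number called moved by over 1.5 times in 13 of 17 comparisons with row blocks aligned (up to 4.0 times) and with array weights in 9 upward and 1 downward (0.25 to 3.92 times).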

Other observations

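Of 13 further genes of chromatin assembly and maintenance, 2, 5 and 5 were higher in XY than in XX supporting cells at the 3 stages. At each stage 0 were lower, and 1.62%, 8.48% and 7.21% of all genes were higher. Uhrf1 averaged 9.96 in XY and 8.64 in XX supporting cells at 12.5 dpc, a difference of 1.32 (SE 0.22, limma adjusted p = 4.6e-06). In germ cells at 13.5 dpc 0 of the 13 differed by limma between XY and XX (1 at an unadjusted p under 0.05). Uhrf1 was higher at 13.5 than at 11.5 dpc in XX germ cells by 1.25 (SE 0.22, adjusted p = 2.25e-05), as in XY germ cells, while Mcm4 and Rrm2 were lower in both.

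Samhd1 had opposite sex differences in the 2 cell types. At 13.5 dpc it averaged 10.85 in XY and 9.37 in XX germ cells, a difference of 1.48 (SE 0.20, limma adjusted p = 1.85e-07), against the -1.99 of supporting cells. A test of that contrast between the cell types was not run. Cdkn1b likewise averaged 9.28 in XY and 7.87 in XX germ cells at 13.5 dpc, a difference of 1.41 (SE 0.33, adjusted p = 0.00252), and 9.44 in XY and 12.02 in XX supporting cells, a difference of -2.57 (SE 0.33, adjusted p = 2.3e-08).

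In the XX germ cell array that was left out, the median of the 42 genes was 8.97, and 14 of them stood above every supporting cell array. The share over all genes was not counted.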
